A study of Mus musculus with 19 samples.

Results

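The genes described here are 10 genes of interleukin 10, tumour necrosis factor and interleukin 6 signalling. They comprise the ligand genes Il10, Tnf and Il6, the receptor genes Il10ra, Il10rb, Tnfrsf1a, Tnfrsf1b and Il6ra, the transcription factor gene Stat3 and the inhibitor gene Socs3. They were chosen by name, through their mouse Ensembl IDs, and all 10 were found among the 49671 genes of the deposited table and among the 23973 genes with enough reads to be tested.

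Total RNA was sequenced from brain homogenate enriched for microglia, 1 library for each of 19 mice on the B6D2F1/J background. HEM mice carried full-length human alpha-synuclein of the wild-type sequence, with the murine Thy-1 promoter as driver and the transgene on the X chromosome, and WT mice were their controls. At 13 months of age there were 8 HEM and 4 WT mice, and at 3 months there were 4 HEM and 3 WT mice. The Thy-1 promoter is known to drive expression mainly in neurons, and the human transcript was not analysed here. Libraries are named by their group and the number in their title.

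The 3 cytokines are made by activated microglia and by other immune cells. Interleukin 10 binds a receptor built from Il10ra and Il10rb, which activates STAT3 and dampens inflammatory transcription. Interleukin 6 binds Il6ra and signals through gp130, also to STAT3, while Socs3 is induced by STAT3 and blocks gp130 signalling in return. Tumour necrosis factor acts through Tnfrsf1a, found on most cells, and Tnfrsf1b, found mainly on immune and endothelial cells, and both lead to NF-kB. The transcripts of Tnf, Il6, Il10 and Socs3 are short-lived, and their genes are quickly induced.

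Promoter sequence is shown for Tnf and Il6, since these 2 cytokine genes differed in their calls between the genotypes, and for a STAT motif at Socs3. Windows of 250 bases upstream of the start came from RefSeq (GRCm38.p6) and matched 7 of the 10 genes, not Il10, Il10ra or Il10rb. Capitals mark matches to 4 motifs searched on both strands, which were NF-kB (GGG, 2 bases of any kind, TTTCC), STAT (TTCNNNGAA), AP-1 (TGANTCA) and CRE (TGACGTCA). No match overlapped another. The window of Tnf is chr17:35202008-35202257 on the minus strand, that of Il6 is chr5:30012864-30013113 on the plus strand, and the stretch of Socs3 is chr11:117969501-117969530 on the minus strand.
Tnf: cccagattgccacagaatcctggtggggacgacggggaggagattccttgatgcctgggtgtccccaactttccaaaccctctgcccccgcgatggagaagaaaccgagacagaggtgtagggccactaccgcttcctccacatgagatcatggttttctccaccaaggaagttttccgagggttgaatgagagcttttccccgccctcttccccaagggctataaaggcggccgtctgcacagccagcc
Il6: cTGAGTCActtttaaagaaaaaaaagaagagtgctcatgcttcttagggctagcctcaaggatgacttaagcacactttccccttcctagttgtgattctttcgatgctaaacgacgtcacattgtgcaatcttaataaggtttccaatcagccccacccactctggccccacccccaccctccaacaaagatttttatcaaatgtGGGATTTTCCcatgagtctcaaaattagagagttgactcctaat
Socs3: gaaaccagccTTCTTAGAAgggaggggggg
The window of Il6 held an NF-kB match, GGGATTTTCC, from 44 to 35 bases before the start, and an AP-1 match, TGAGTCA, from 249 to 243 bases before it. The window of Socs3 held a STAT match, TTCTTAGAA, from 154 to 146 bases before the RefSeq start, which lies inside Socs3 as GENCODE annotates it, so that 77 of the 250 window bases fall in annotated exons. Among 32851 such windows, 1.41% held the NF-kB letters, 7.02% the STAT letters, 6.75% the AP-1 letters and 1.55% the CRE letters. None of the 4 sets of letters occurs in the window of Tnf or in that of Stat3. STAT letters were also found for Tnfrsf1a and Tnfrsf1b. A match is a description of the letters only.

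Values are normalized counts, that is reads in a gene divided by 1 size factor per library. Depth was 63.3 to 95.8 M reads in genes for HEM and 93.2 to 124.5 M for WT at 13 months, and 74.7 to 112.9 M for HEM and 83.0 to 106.8 M for WT at 3 months. In an earlier analysis of these data, 3 libraries stood apart on principal components, namely HEM replicates 1 and 11 at 13 months and HEM replicate 3 at 3 months, and the calls among the 10 genes are given with and without them. The 12 microglia markers were detected in each library and none of them was called at 13 months (median log2 change -0.24). In such bulk samples fewer cells of a type and less RNA per cell cannot be told apart. Each fold change below is on the log2 scale of (normalized count + 1), with its standard error. Each adjusted p comes from limma-trend, adjusted by Benjamini-Hochberg over all 23973 genes, and a gene was called when it was under 0.05. Errors of group means are SDs over the libraries of the group.

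At 13 months, 3 of the 10 genes were called between HEM and WT mice, and all 3, Il10, Tnf and Socs3, were higher in HEM. Of all tested genes 12.2% were called, 4.87% as higher in HEM and 7.3% as lower. The 5 receptor genes, Stat3 and Il6 were not called. For Il10, Tnf and Socs3 each of the 8 HEM libraries lay above each of the 4 WT libraries, an order found in 2.69% of all tested genes. For Il10 the lowest HEM libraries, replicates 8 and 11, held 20 reads each, as did WT replicate 8. The order of those libraries came from the size factors.

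**Figure D1:**
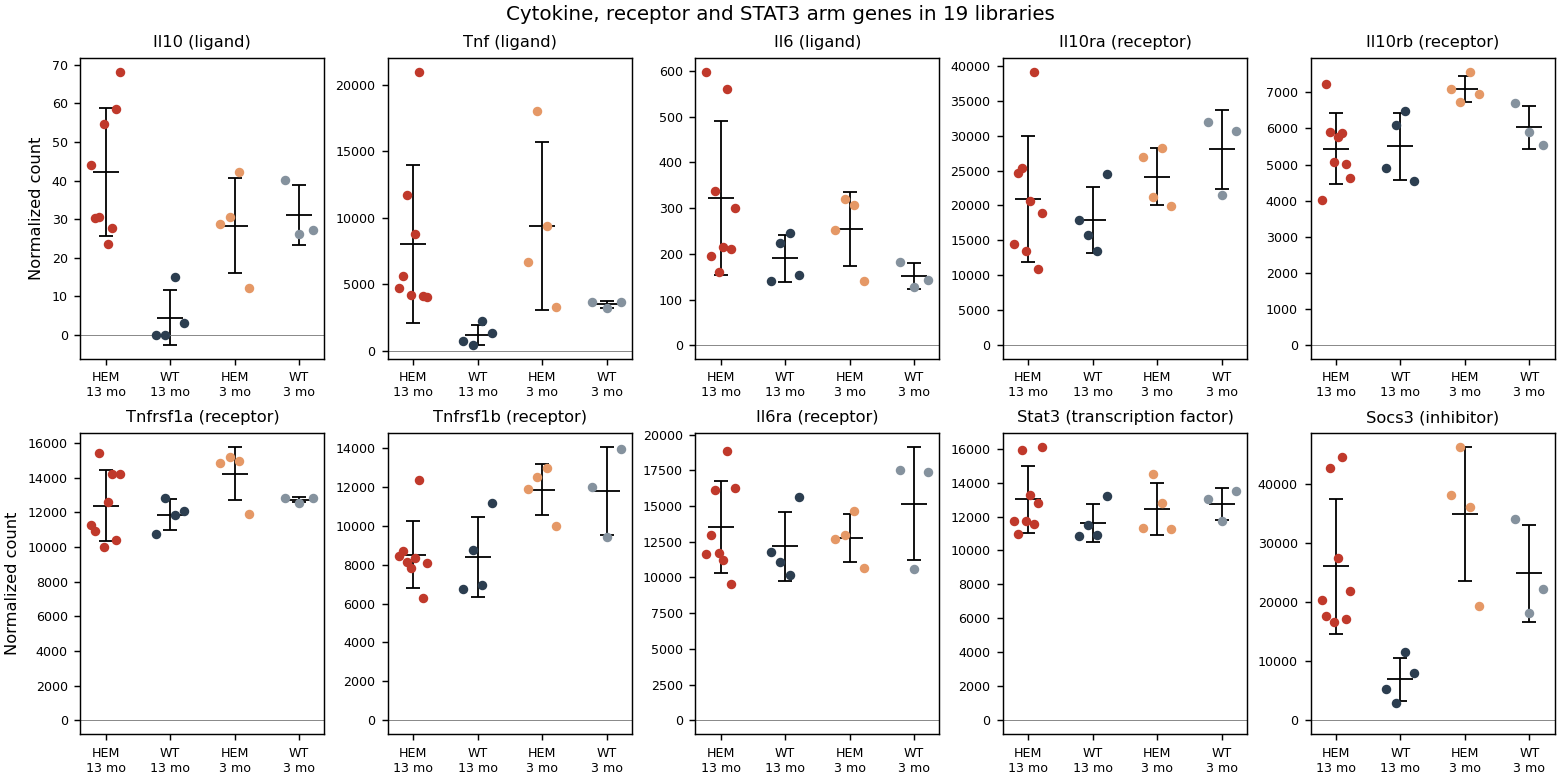
Normalized counts of the 10 genes (vertical axes, linear, each gene on its own scale) by group (horizontal axes), with 1 point per library and bars for the mean and SD. For Il10, Tnf and Socs3 the 4 WT libraries at 13 months lie below the libraries of the other 3 groups apart from HEM replicate 7 at 3 months for Il10, at 12.2, while the receptor genes and Stat3 overlap between the genotypes at 13 months.

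Il10 (ENSMUSG00000016529, mm10 chr1:131019845-131024974, plus strand) encodes the anti-inflammatory cytokine itself and was the scarcest of the 10 transcripts. In HEM at 13 months it ranged from 23.5 to 68.2 normalized counts, with a median of 37.3. The 4 WT libraries at 13 months were at 0.0 in replicates 6 and 7, 15.1 in replicate 8 and 3.0 in replicate 9. These rest on few reads, 20 to 53 per library in HEM and 0, 0, 20 and 3 in WT. A count of 0 allows up to 3 reads, which is 2.10 and 2.80 normalized counts in replicates 6 and 7, and covers counting error only. The means of 42.2 ± 16.6 (SD, n = 8) and 4.52 ± 7.17 (SD, n = 4) stood 9.33-fold apart, and the log2 change was 3.83 ± 0.59 (limma-trend adjusted p = 0.00176). The size of this change followed the constant added before taking logs: it was 4.37 with 0.5 and 1.89 with 10, and 3.16 with edgeR, with a call in each. Without the 3 libraries that stood apart it was 3.89 with adjusted p = 0.00567 (limma-trend). At 3 months Il10 was at 28.6, 30.5, 42.2 and 12.2 in HEM replicates 1, 3, 4 and 7, and at 40.1, 26.1 and 27.1 in WT replicates 1, 3 and 5. Those genotypes overlapped. Ordered by median, WT at 13 months was lowest at 1.52, followed by WT and HEM at 3 months and HEM at 13 months, and the last 3 of these overlapped as neighbours.

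Tnf (ENSMUSG00000024401, mm10 chr17:35199381-35202007, minus strand) encodes tumour necrosis factor, a proinflammatory cytokine that activates NF-kB. In HEM at 13 months it ranged from 4024 to 20972 normalized counts, with a median of 5171. WT at 13 months had 783 in replicate 6, 484 in replicate 7, 2246 in replicate 8 and 1323 in replicate 9, all below the lowest HEM value. The means were 8029 ± 5911 (SD, n = 8) and 1209 ± 773 (SD, n = 4), 6.64-fold apart, and the log2 change was 2.70 ± 0.48 (limma-trend adjusted p = 0.00242). The highest HEM library, replicate 11, was one of the 3 that stood apart, and without these 3 the change was 2.51 with adjusted p = 0.00535 (limma-trend). At 3 months Tnf was at 6710, 18045, 9400 and 3281 in HEM replicates 1, 3, 4 and 7, and at 3668, 3205 and 3671 in WT replicates 1, 3 and 5. HEM replicate 7 lay among the WT values and the other 3 HEM libraries above them. Ordered by median, Tnf was lowest in WT at 13 months, then WT at 3 months, HEM at 13 months and HEM at 3 months, and only the last 2 of these neighbours overlapped.

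Il6 (ENSMUSG00000025746, mm10 chr5:30013114-30019981, plus strand) encodes interleukin 6, which signals through STAT3. It ranged from 161 to 599 normalized counts in HEM at 13 months, with a median of 257. WT at 13 months had 140.0, 223, 245 and 153 in replicates 6, 7, 8 and 9, so that the groups overlapped. Only 4 of the 8 HEM libraries exceeded the highest WT library, with the 2 highest values, 599 and 561, in the replicates 1 and 11 that stood apart. Il6 differed by 0.64 ± 0.34 and was not called (limma-trend adjusted p = 0.254), and without the 3 libraries the change was 0.31. At 3 months it was at 251, 320, 307 and 140.1 in HEM replicates 1, 3, 4 and 7, and at 183, 128 and 142 in WT replicates 1, 3 and 5. Neighbouring groups in the order of medians overlapped throughout for Il6.

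Il10ra (ENSMUSG00000032089, mm10 chr9:45253837-45269149, minus strand) encodes the chain that binds interleukin 10 with high affinity. At 13 months the mean of the 8 HEM libraries was 20948 ± 9009 normalized counts and that of the 4 WT libraries 17928 ± 4757, a change of 0.15 ± 0.26 that was not called (limma-trend adjusted p = 0.798). Its HEM libraries at 13 months spread from 10941 to 39135, the latter in replicate 11. At 3 months the means were 24118 ± 4107 over 4 HEM and 28050 ± 5658 over 3 WT libraries, and all neighbouring groups overlapped. Il10rb (ENSMUSG00000022969, mm10 chr16:91406164-91425834, plus strand) encodes the second chain, shared with receptors of related cytokines. At 13 months its means were 5441 ± 981 for HEM and 5505 ± 927 for WT, a change of -0.02 ± 0.13 (limma-trend adjusted p = 0.952). At 3 months Il10rb was at 7098, 6731, 7570 and 6958 in HEM replicates 1, 3, 4 and 7, and at 6692, 5889 and 5531 in WT replicates 1, 3 and 5. All 4 HEM libraries lay above the 3 WT libraries, as for 3.08% of all genes at that age, and the change of 0.23 ± 0.16 was not called (limma-trend adjusted p = 1.0). Of the exon bases of Il10rb 14.9% are shared with the predicted gene Gm21970 on the same strand, so its counts carry that uncertainty.

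Tnfrsf1a (ENSMUSG00000030341, mm10 chr6:125349362-125362484, plus strand) encodes the receptor with a death domain. At 13 months the mean of the 8 HEM libraries was 12369 ± 2042 normalized counts and that of the 4 WT libraries 11866 ± 876, a change of 0.05 ± 0.11 (limma-trend adjusted p = 0.866). Tnfrsf1b (ENSMUSG00000028599, mm10 chr4:145213463-145246870, minus strand) encodes the receptor without a death domain. Its 13-month means were 8514 ± 1723 for HEM and 8400 ± 2048 for WT, a change of 0.03 ± 0.16 (limma-trend adjusted p = 0.952). At 3 months Tnfrsf1b had means of 11840 ± 1309 over 4 HEM and 11782 ± 2273 over 3 WT libraries, so that its medians at 3 months exceeded those at 13 months in both genotypes, with overlapping ranges. Il6ra (ENSMUSG00000027947, mm10 chr3:89864059-89913196, minus strand) encodes the binding chain for interleukin 6. Means at 13 months were 13525 ± 3194 for HEM and 12168 ± 2420 for WT, a change of 0.14 ± 0.18 (limma-trend adjusted p = 0.717). The highest of the 8 HEM libraries was replicate 11 for Tnfrsf1b, Il6ra and Il10ra alike. Exons of Gm42809 on the other strand overlap 2.80% of the exon bases of Il6ra.

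Stat3 (ENSMUSG00000004040, mm10 chr11:100885098-100939540, minus strand) encodes the factor on which interleukin 10 and interleukin 6 signals converge. Its transcript varied least of the 10 genes over the 19 libraries, from 10861 to 16103 normalized counts, a 1.48-fold range. At 13 months the mean of the 8 HEM libraries was 13014 ± 1986 and that of the 4 WT libraries 11624 ± 1096, a change of 0.15 ± 0.11 (limma-trend adjusted p = 0.433). RNA levels say nothing of STAT3 phosphorylation, which was not measured. Exons of Stat5a on the other strand overlap 0.756% of its exon bases.

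Socs3 (ENSMUSG00000053113, mm10 chr11:117966079-117970047, minus strand) encodes the feedback inhibitor of gp130 receptors and is a known STAT3 target. In HEM at 13 months it ranged from 16695 to 44589 normalized counts, with a median of 21113. WT at 13 months had 5282, 2998, 11543 and 7963 in replicates 6, 7, 8 and 9, and the highest of these was below the lowest HEM library. The means were 26041 ± 11418 (SD, n = 8) and 6946 ± 3675 (SD, n = 4), 3.75-fold apart, and the log2 change was 1.97 ± 0.34 (limma-trend adjusted p = 0.00237). Without the 3 libraries that stood apart it was 1.86 with adjusted p = 0.00697 (limma-trend). At 3 months Socs3 was at 38136, 46275, 36116 and 19313 in HEM replicates 1, 3, 4 and 7, and at 34042, 18215 and 22272 in WT replicates 1, 3 and 5. Both 3-month groups overlapped HEM at 13 months, and only WT at 13 months stood below all of them.

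Levels can be set beside each other per kilobase of exon. In HEM at 13 months the median level per kilobase was 7303 for Socs3, 5653 for Il10ra, 4597 for Tnfrsf1a, 3155 for Tnf and 2153 for Tnfrsf1b. Il6ra, Il10rb and Stat3 followed with 1425, 1422 and 1286, and Il6 and Il10 were far lower with 106 and 28.5. In WT at 13 months the median level per kilobase of Socs3 was 2291, that of Tnf 642 and that of Il10 1.16. There all 5 receptor genes and Stat3 exceeded Tnf, among them Il10ra (4816), Tnfrsf1a (4612) and Tnfrsf1b (2057).

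At 3 months the comparison of HEM with WT asked whether the genotypes already differed in young mice. None of the 10 genes was called, and neither was any other gene (0.0% of 23973, with 924 genes at an unadjusted p under 0.05 in limma-trend and 6 genes called by DESeq2). Each of the 10 adjusted p was 1.0, none of the 10 had an unadjusted p under 0.05, and edgeR and DESeq2 called none of them. The differences were 1.16 ± 0.60 for Tnf, 0.70 ± 0.42 for Il6, 0.47 ± 0.43 for Socs3 and -0.22 ± 0.73 for Il10. The test of the difference between the genotype effects at the 2 ages gave 4.06 ± 0.94 for Il10 (limma-trend adjusted p = 0.0855), 1.54 ± 0.76 for Tnf (limma-trend adjusted p = 0.359) and 1.50 ± 0.55 for Socs3 (limma-trend adjusted p = 0.203). No gene was called for this difference by limma-trend (0.0%, with 3551 at an unadjusted p under 0.05), against 938 by DESeq2, none of them among the 10. DESeq2 gave no adjusted p for Il10. For none of the 3 genes was the effect shown to differ between the ages.

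**Figure D2:**
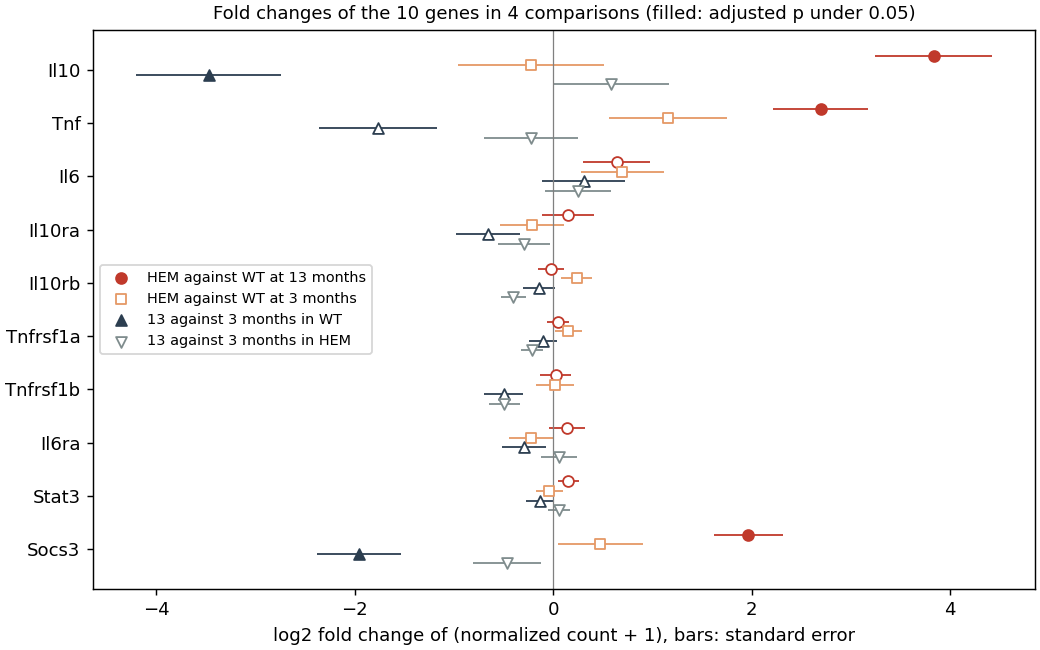
Log2 fold change of (normalized count + 1) with its standard error (horizontal axis) for the 10 genes (rows) in 4 comparisons, with filled symbols for an adjusted p under 0.05. Il10, Tnf and Socs3 are filled for HEM against WT at 13 months (3.83, 2.70 and 1.97), and Il10 and Socs3 for 13 against 3 months in WT (-3.47 and -1.96).

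The age comparison in WT mice uses the same 4 WT libraries at 13 months as the genotype comparison, so the 2 are not independent. Il10 averaged 31.1 ± 7.83 normalized counts at 3 months (SD, n = 3) and was lower at 13 months by a log2 change of -3.47 ± 0.73 (limma-trend adjusted p = 0.0379). Socs3 averaged 24843 ± 8221 at 3 months and was lower at 13 months, at -1.96 ± 0.43 (limma-trend adjusted p = 0.0425). These 2 of the 10 genes were called, where 0.709% of all genes were called and 0.246% as lower at 13 months. Both calls lie close to the threshold. That of Il10 was lost without WT replicate 7 or 9 at 13 months, without HEM replicate 1 at 3 months and without any 1 of the 3 WT libraries at 3 months, with changes from -4.31 to -2.97. That of Socs3 was lost in 9 of the 19 fits that leave out 1 library, with changes from -2.26 to -1.61. These 9 left out WT replicate 7 or 9 or HEM replicate 8 or 13 at 13 months, HEM replicate 1 or 4 at 3 months, or any of the 3 WT libraries at 3 months. With edgeR neither was called (adjusted p = 0.112 and 0.0574), and with DESeq2 both were (adjusted p = 0.0119 and 0.00255). Without the 3 libraries that stood apart both were called (limma-trend adjusted p = 0.0482 and 0.0435). With the level of immediate early genes, described below, as a term, the change of Il10 was -1.38 and that of Socs3 turned to 0.20, and neither was called. Tnf, 2.91-fold lower in mean at 13 months with no overlap (a lower order without overlap held for 6.46% of all genes), had a change of -1.77 ± 0.60 and was not called (limma-trend adjusted p = 0.143). Il10ra (-0.66 ± 0.32) and Tnfrsf1b (-0.50 ± 0.19) were not called either.

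In HEM mice none of the 10 genes was called between 13 and 3 months, where 1.62% of all genes were. At an unadjusted p under 0.05 in limma-trend there were 2 of the 10, beside 3974 of all 23973 genes. EdgeR and DESeq2 called none of the 10, beside 372 and 1302 of all genes. These counts are no result about the 10 genes. Il10 differed by 0.58 ± 0.59, Tnf by -0.22 ± 0.48 and Socs3 by -0.46 ± 0.34 (limma-trend adjusted p = 0.661, 0.861 and 0.530). The receptors Tnfrsf1b (-0.49 ± 0.16, limma-trend adjusted p = 0.115) and Il10rb (-0.40 ± 0.13, limma-trend adjusted p = 0.117) came closest to the threshold. Tnfrsf1b was called when HEM replicate 11 at 13 months was left out, and Il10rb when HEM replicate 3 at 13 months was left out.

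Other genes of the pathways were taken from 8 lists. Beside the 10 genes these held 143 genes, of which 139 were tested. At 13 months 23 of them were higher and 4 lower in HEM (19.4%, against 12.2% of all genes), with a median log2 change of 0.23 against 0.03 over all genes. In the other 4 comparisons limma-trend and edgeR called none of the 139. Of all genes limma-trend called 170 for age in WT and 388 for age in HEM, and edgeR 103 and 372. DESeq2 called 0 of the 139 at 3 months, 11 for age in WT, 2 for age in HEM and 4 for the difference. Of all 23973 genes it called 6, 1219, 1302 and 938 in the same order. At an unadjusted p under 0.05 in limma-trend there were 7, 34, 17 and 20 of the 139. Among all genes there were 924, 3714, 3974 and 3551. For age in HEM and for the difference, the DESeq2 and unadjusted shares of the 139 did not exceed those of all genes. The counts of each list below stand beside 12.2% of all genes called, 4.87% higher and 7.3% lower, and a list near these shares is no result about its genes. With either of 2 marker levels described below as a term, that of immediate early genes or that of neutrophil and erythroid genes, none of the 139 was called at 13 months. The same held for all 23973 genes, so this is no result about the 139. Changes that such a term moved by over 1.5 times are given with it. The lists were drawn up with earlier results of these data known, so they are no independent evidence of a direction.

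Among the ligands, Il10 was the only 1 of 8 tested members of the IL-10 family and its receptors that was called (list median 0.55). Of 17 gp130 cytokines and receptors 1 rose and 2 fell (median 0.24). Oncostatin M, encoded by Osm, rose from a WT mean of 898 ± 163 to a HEM mean of 3758 ± 1604 normalized counts, by 1.95 ± 0.34 (limma-trend adjusted p = 0.00229), which was 0.45 with the immediate early term and 1.16 with the neutrophil and erythroid term. The interleukin 11 receptor gene Il11ra1 fell by 0.39 on the log2 scale (SE 0.08, limma-trend adjusted p = 0.00556), with no overlap between 4774 to 6037 in HEM and 6667 to 7387 in WT. Ctf1, which encodes cardiotrophin 1, changed by -0.82 ± 0.22 (limma-trend adjusted p = 0.0214), a call lost without WT replicate 7, 8 or 9. Of 18 TNF superfamily ligands 3 rose and none fell (median 0.55). Beside Tnf these were Fasl, the ligand of the death receptor Fas (1.60 ± 0.41, lost without WT replicate 9), and Tnfsf14, known as LIGHT (1.08 ± 0.30, lost without WT replicate 8 or 9 and 0.45 with the neutrophil and erythroid term). Both groups overlapped for Fasl and for Tnfsf14.

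Of the 24 genes on the TNF receptor superfamily list only Tnfrsf18, known as GITR, was called (median 0.10). Its means were 265 ± 76.2 normalized counts for HEM and 135 ± 42.9 for WT, a change of 0.98 ± 0.26 whose call was lost without WT replicate 6 or 9. Tnfrsf26, also a gene of this family by its name, stood on another list, given below, and was called too (1.05 ± 0.25). Of 26 genes for the receptor signalling complex and TNF shedding 5 rose and none fell (median 0.06). Tnfaip3, which encodes the NF-kB inhibitor A20, had means of 7491 ± 2745 for HEM and 2598 ± 782 for WT, a change of 1.50 ± 0.28 (limma-trend adjusted p = 0.00281) that was 0.0491 with the immediate early term. The necroptosis kinase gene Ripk3 (0.64 ± 0.15) and the ubiquitin ligase gene Birc3 (0.52 ± 0.14) lost their calls without WT replicate 9 and were 0.35 and 0.29 with the neutrophil and erythroid term. Tab3, an adaptor of the kinase TAK1, changed by 0.32 ± 0.09, a call lost without HEM replicate 12 or any of the 4 WT libraries at 13 months, and by 0.17 with the immediate early term.

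Of 25 JAK kinases, STAT factors and SOCS inhibitors 5 rose and 2 fell (median 0.14). Next to Socs3, the inhibitor gene Socs1, which acts on JAK kinases, had means of 1661 ± 326 normalized counts for HEM and 878 ± 210.3 for WT, a change of 0.93 ± 0.19 (limma-trend adjusted p = 0.00402) that was 0.59 with the immediate early term. Stat4, a factor best known from T and NK cells, changed by 1.37 ± 0.34 (limma-trend adjusted p = 0.0131), which was lost without WT replicate 9 and was 0.71 with the neutrophil and erythroid term. Pias2, a SUMO ligase, changed by -0.30 ± 0.07 (limma-trend adjusted p = 0.00872). Of 20 genes known to respond to interleukin 10 or STAT3, 7 rose and none fell (median 0.49). The kinase gene Pim1 had means of 5086 ± 1537 for HEM and 1501 ± 304 for WT, a change of 1.72 ± 0.27 (limma-trend adjusted p = 0.00185) that was 0.84 with the neutrophil and erythroid term. The survival gene Mcl1 (0.63 ± 0.13), the interleukin 1 receptor antagonist gene Il1rn (1.52 ± 0.36) and Tnfrsf26 (1.05 ± 0.25) also rose, the groups of Il1rn with overlap. Mcl1 was 0.0605 with the immediate early term, and Il1rn and Tnfrsf26 were 0.19 and 0.52 with the neutrophil and erythroid term.

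Of 11 factors that control the decay of cytokine transcripts 3 rose and none fell (median 0.27). Zfp36, which encodes tristetraprolin, a protein that destabilises the Tnf transcript, had means of 100259 ± 43898 normalized counts for HEM and 38794 ± 15424 for WT, a change of 1.37 ± 0.31 (limma-trend adjusted p = 0.00772) that turned to -0.31 with the immediate early term. Zc3h12a, which encodes the ribonuclease Regnase-1 that cleaves Il6 transcripts, changed by 0.99 ± 0.20 (limma-trend adjusted p = 0.00465), or 0.0386 with the immediate early term. Tia1, a translational silencer of Tnf, changed by 0.47 ± 0.12 (limma-trend adjusted p = 0.0127), which was lost without WT replicate 7 or 9.

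**Figure D3:**
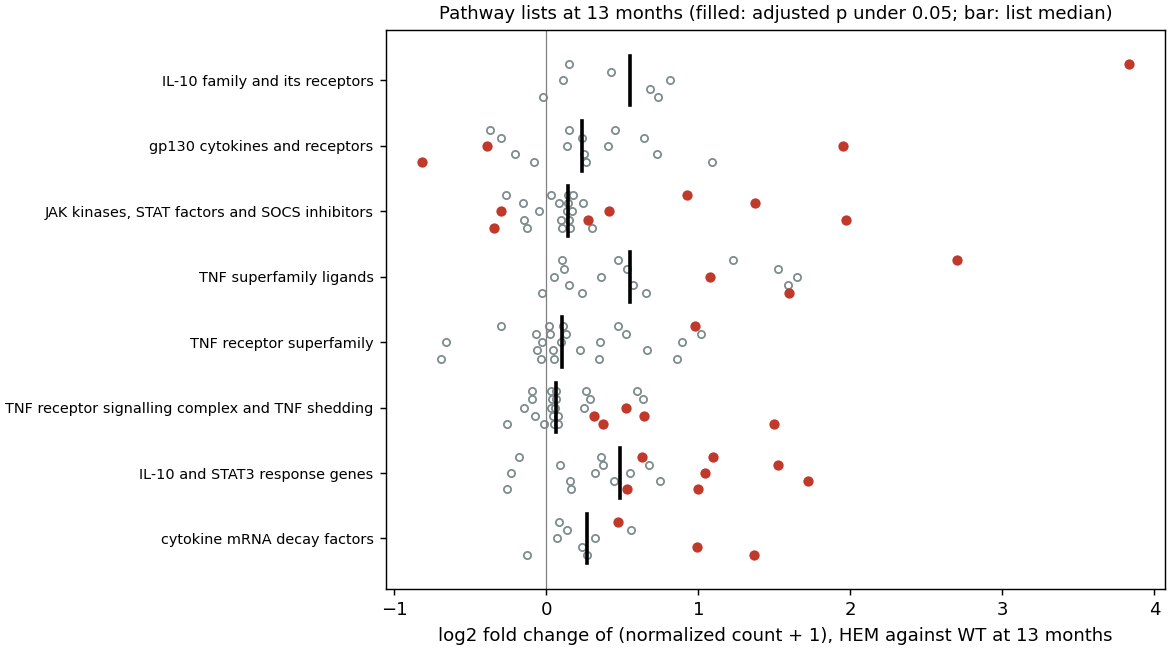
Log2 fold change for HEM against WT at 13 months (horizontal axis) of each tested gene in 8 pathway lists (rows), filled where the adjusted p was under 0.05, with a vertical bar at the list median. The medians lie between 0.06 and 0.55, and Il10 (3.83) and Tnf (2.70) are the 2 points farthest to the right.

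Immediate early genes, which many stimuli induce quickly, moved with Il10, Tnf and Socs3. At 13 months 14 of the 16 on the list were called higher in HEM (median 1.62), beside 4.87% of all tested genes. In WT 9 of the 16 were called lower at 13 than at 3 months (median -1.84), beside 0.246% of all tested genes. At 13 months the summed level of the 16 was 473587 to 1333443 normalized counts over the HEM libraries and 94249 to 407384 over the WT libraries, and at 3 months it was 592190 to 1027295 and 630343 to 1080787. Their mean log2 level, 13.28 to 14.63 in HEM against 11.24 to 12.96 in WT at 13 months, did not overlap between the genotypes, so the 2 cannot be told apart at that age. No gene of this list was at 0 in any library. With this level as a term in the model the 13-month changes were 1.99 for Il10, 0.47 for Tnf and 0.08 for Socs3 (limma-trend adjusted p = 0.432, 0.802 and 0.946), and no gene of the 23973 was called.

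**Figure D4:**
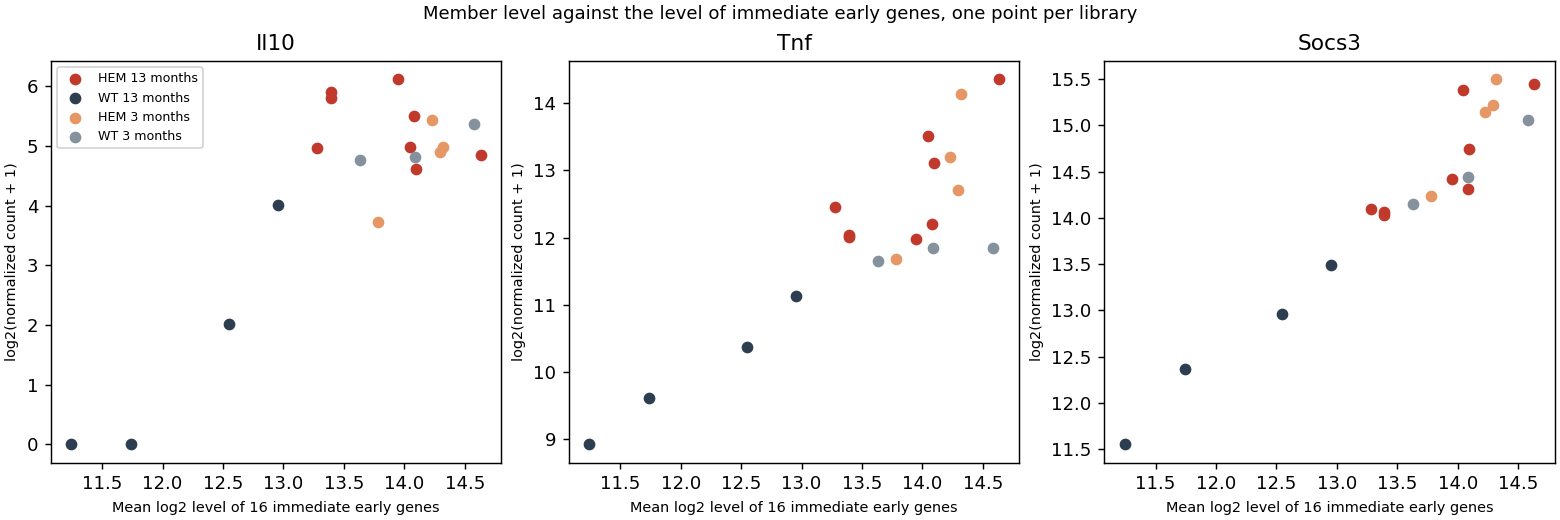
Level of Il10, Tnf and Socs3 as log2(normalized count + 1) (vertical axes) against the mean log2 level of 16 immediate early genes (horizontal axes), with 1 point per library coloured by group. The 4 WT libraries at 13 months lie at the left of each panel, between 11.24 and 12.96, and the other 15 lie at 13.28 or above.

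Markers of blood and marrow cells were called at 13 months in differing shares, beside the 4.87% of all genes called higher. All 12 neutrophil markers were higher in HEM (median 2.14), as were 5 of 6 eosinophil (median 3.46), 5 of 8 monocyte (median 1.45), 5 of 10 T and NK cell (median 1.28), 3 of 10 B and plasma cell (median 0.60), 2 of 7 erythroid (median 1.04) and 1 of 8 mast cell and basophil markers (median 1.42). The summed neutrophil level at 13 months was 68023 to 585568 normalized counts over the HEM libraries and 41223 to 109859 over the WT libraries, and at 3 months it was 49346 to 157526 and 78615 to 202013. The summed monocyte level was 46381 to 108967 in HEM and 35169 to 46846 in WT at 13 months, and the summed T and NK cell level was 7804 to 33684 in HEM and 3443 to 10963 in WT. No marker of these lists was at 0 in any library. The 12 microglia and 8 border-associated macrophage markers had no call, and all 6 choroid plexus markers were lower in HEM (median -1.02). With the neutrophil and erythroid level as a term the 13-month changes were 4.32 for Il10, 2.71 for Tnf and 1.85 for Socs3, each with limma-trend adjusted p = 0.395, and again no gene of the 23973 was called. The part of the other marker lists in these results was not tested.

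**Figure D5:**
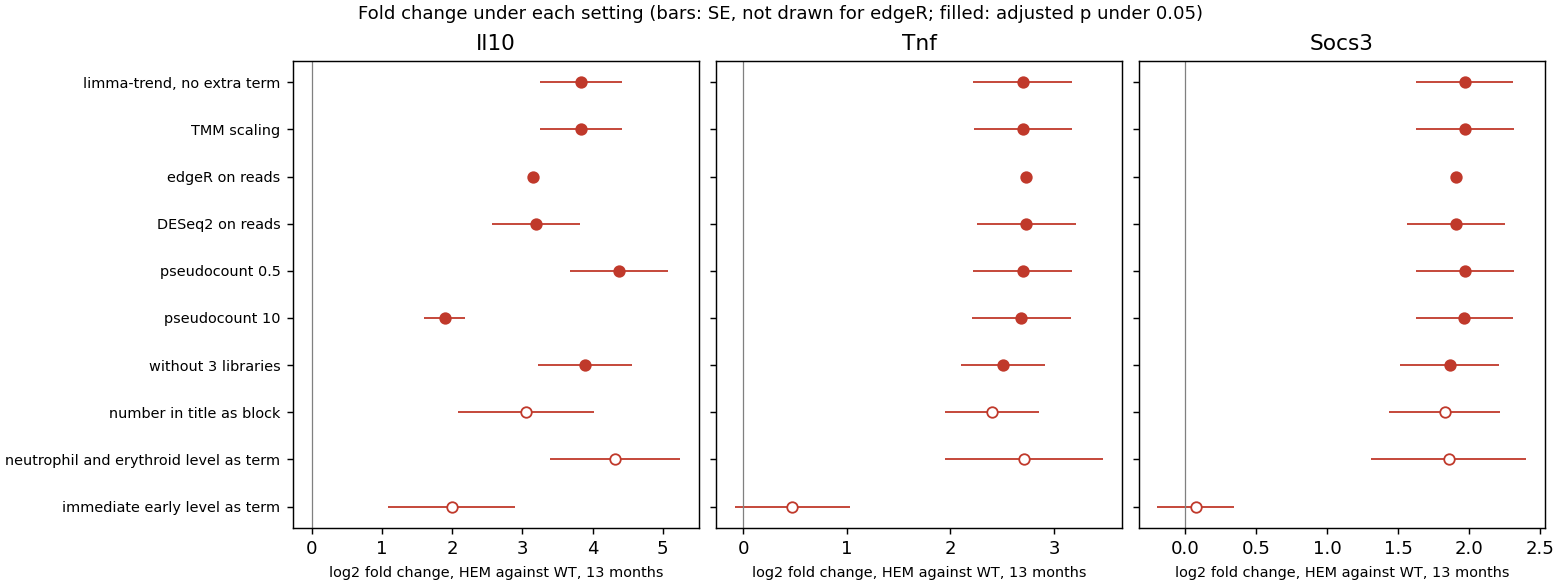
Log2 fold change of Il10, Tnf and Socs3 for HEM against WT at 13 months (horizontal axes) under 10 settings (rows), with bars for the standard error where the tool gives one and filled points for an adjusted p under 0.05. The 7 upper settings keep the calls of all 3 genes, and the 3 lower ones lose them, where the immediate early term gives 1.99, 0.47 and 0.08.

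The genes most like the 3 cytokines and Socs3 were those with the highest Pearson r of log2(normalized count + 1) over the 19 libraries. The 10 genes themselves and genes with predicted, clone, mitochondrial or pseudogene names were left out of this ranking. The r is given as a description since all share library and group. For Socs3 these were the AP-1 and stress genes Fos (r = 0.974), Junb (0.972) and Atf3 (0.968). For Tnf they were Ier3 (0.967), an immediate early gene, and the chemokine genes Ccl2 (0.959) and Ccl3 (0.946). With group means removed the r was 0.922, 0.936 and 0.887 for Socs3 and 0.915, 0.912 and 0.864 for Tnf. For Il10 they were the immediate early genes Klf4 (r = 0.889) and Fosb (0.883) and the microRNA gene Mir27a (0.857), with Spearman's rho of 0.578, 0.366 and 0.545, and r of 0.777, 0.669 and 0.438 with group means removed. For Il6 the r was lower, 0.805 for Ccdc134, 0.804 for Spcs3 and 0.799 for Mir6924, or 0.821, 0.748 and 0.748 with group means removed.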

How the data were processed

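The values the authors deposited are a normalized signal per gene. In each library 100% of the values are whole multiples of 1 step (tolerance 0.01), that is gene counts over a size factor, so whole reads were recovered. Trimmomatic, HISAT2, featureCounts and DESeq2 were used with build mm10, per the submitters' processing notes. Versions, annotation and strand setting are not given in the sources used here. Symbols and positions came from GENCODE M21 (mm10), with 99.3% of the 49671 IDs matched. Of these genes 8581 were at 0 in each library.

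Genes with at least 10 normalized counts in at least 3 libraries were tested by limma-trend (limma 3.58.1, R 4.3.3, robust, two-sided) on log2(value + 1), with the 4 groups in 1 model and no covariate. The constant added before taking logs affects the size of changes of low genes, and for Il10 the change was larger than with edgeR. The step was also run on simulated counts. These had the same dispersion for all genes and no variation shared between genes, so they are no support for the calls here. Each p-value weighs a group difference against the residual spread between libraries, 1 for each mouse. Alternatives were edgeR 4.0.16 and DESeq2 1.42.0 on recovered reads, TMM scaling, other constants and filters, the compared groups alone, 2 marker levels as terms, the title number as a block, and libraries left out. Libraries of a group were distinct (log2 correlations between 0.942 and 0.981 over pairs).

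The genes, lists and tests were chosen with earlier results of these data known. Named were the 10 genes and, of each pathway list, the called genes (at most the 4 with the smallest p). For each cytokine and Socs3 the 3 tested genes with the highest Pearson r were also named. That ranking left out the 10 genes and genes with predicted, clone, mitochondrial or pseudogene names.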

Additional observations from a re-analysis of the deposited data

Results flagged for a closer look

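In 30 groups of 4 or 8 libraries, 1 gene in 1 group each, 3 held a library far from the others by Dixon's criterion. Chance alone meets it in about 1 of 20 groups if values are normally distributed. The criterion was applied to linear normalized counts and not on the log scale of the tests, where gaps at the high end are smaller. Tnf in HEM replicate 11 at 13 months, at 20972 normalized counts, stood above the next library at 11750 (gap 0.544 of the range, critical value 0.526). Tnfrsf1b in the same library, at 12366, stood above the next at 8682 (0.604 of the range, critical value 0.526). Tnfrsf1a in HEM replicate 7 at 3 months, at 11915, stood below the next at 14841 (0.895 of the range, critical value 0.829). Without the 3 libraries that stood apart, among them replicate 11, the 13-month change of Tnf was 2.51.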

How the results depend on the processing

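The calls of Il10, Tnf and Socs3 at 13 months held under the settings without an added term or block and in each of the 19 fits that leave out 1 library, with log2 changes from 3.33 to 4.67, 2.34 to 3.07 and 1.62 to 2.27. Of the 10 genes, 3 were called in each of these 19 fits at 13 months, 0 to 2 for age in WT, 0 to 1 for age in HEM and 0 at 3 months and for the difference. Il10 passed the filter at 50 only through HEM replicates 7, 12 and 13 at 13 months (54.7, 58.5 and 68.2). That setting is therefore no support for the call of Il10. With the neutrophil and erythroid (marrow) term, the immediate early term or the replicate block, 0 of the 10 and 0 of all genes were called at 13 months, against 2918. The cause was not tested. The block leaves 5 residual degrees of freedom, while either term takes up only 1. The immediate early level did not overlap between the genotypes at 13 months, so that fit cannot tell the 2 apart. For age in WT 0 of the 10 were called with edgeR, without a filter, with the compared groups alone, with either term and with the block, and 1 with a constant of 10. All genes called for age in WT, 170, became 103 with edgeR, 1219 with DESeq2, 79 without a filter, 292 with a filter at 50, 77 with the compared groups alone, 4 with the marrow term, 0 with the immediate early term or the block and 256 without the 3 libraries. For age in HEM, 388 became 1302 with DESeq2, 231 with the compared groups alone, 0 with the marrow term, 228 with the immediate early term, 1 with the block and 203 without the 3 libraries. For the difference, 0 became 938 with DESeq2 and 1 without the 3 libraries, and at 3 months 0 became 6 with DESeq2. Leaving out 1 library gave 1707 to 3287 calls at 13 months, 0 at 3 months, 0 to 523 for age in WT, 62 to 648 for age in HEM and 0 to 313 for the difference; the 13-month count fell to 1733, 1831 and 1707 without WT replicate 7, 8 or 9.

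Some mice of the 2 genotypes have the same number in their titles, and the labels do not say what it stands for. The deviations of same-numbered mice from the group means correlated at 0.107 and 0.126 for 7 and 8 at 13 months and at 0.0211 and -0.0381 for 1 and 3 at 3 months. Pairs with different numbers spanned -0.204 to 0.265 at 13 months and -0.127 to 0.0749 at 3 months. Whether the number marks a shared litter or batch was not tested. The replicate block joined all libraries with the same number, also across the 2 ages. WT replicates 6 and 9 at 13 months share their numbers with no other library, so they carry no weight in it. The WT side of its 13-month contrast thus rested on replicates 7 and 8. With the replicate block the 13-month changes were 3.05 for Il10, 2.40 for Tnf and 1.83 for Socs3 (limma-trend adjusted p = 0.318, 0.169 and 0.185). Under this block some signs turned: Tnfrsf1a (-0.17), Tnfrsf1b (-0.0177) and Il6 (-0.34) at 13 months, Tnfrsf1a for age in WT (0.0700), and Tnfrsf1b for the difference (-0.20).

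Signs turned in other settings too, for uncalled genes apart from those named as called. Some turned under a term and others from a value near 0. Leaving out 1 library turned larger changes of Il6 (0.25) and Tnf (-0.22) for age in HEM and of Il10 (-0.22) at 3 months. With the immediate early term at 13 months the genes that turned were Il10ra (-0.55), Tnfrsf1a (-0.25), Tnfrsf1b (-0.38), Il6 (-0.51) and Il6ra (-0.40), and the called Zfp36 (-0.31). For age in WT they were Il10ra (0.14), Stat3 (0.0389), Tnf (0.77), Tnfrsf1a (0.23), Il6ra (0.32) and the called Socs3 (0.20), and for age in HEM Tnf (0.16). For the difference they were Il10ra (-0.32), Socs3 (-0.33), Tnf (-0.61), Tnfrsf1b (-0.39) and Il6ra (-0.16). With the marrow term they were Il10rb (0.21), Stat3 (-0.00075) and Tnfrsf1a (-0.10) at 13 months, Stat3 (0.0082) and Tnfrsf1b (-0.0443) at 3 months, Stat3 (-0.0422) for age in HEM, and Il10rb (0.0398) and Stat3 (-0.0090) for the difference. Without the 3 libraries they were Il10rb (0.0253) and Tnfrsf1b (-0.0690) at 13 months, Tnfrsf1b (-0.0106) at 3 months and Tnfrsf1b (-0.0584) for the difference. For the difference Il6 was 0.0071 with edgeR and 0.0039 with DESeq2. Leaving out 1 library turned signs within these ranges: at 13 months Il10rb -0.11 to 0.0614, Tnfrsf1a -0.0022 to 0.0878 and Tnfrsf1b -0.0695 to 0.17; at 3 months Il10 -0.45 to 0.12, Stat3 -0.11 to 0.0079 and Tnfrsf1b -0.13 to 0.15; for age in HEM Il6 -0.0112 to 0.38, Il6ra -0.0242 to 0.13 and Tnf -0.64 to 0.18; and for the difference Il6 -0.32 to 0.0764 and Tnfrsf1b -0.12 to 0.16. TMM scaling moved library medians by -0.015 to 0.021. Depth limits Il10 most, with 0 to 55 reads per library.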
